A study of Triticum aestivum with 4 samples.

Results

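The subject is the cytoskeleton of young wheat seed, as read by the probe sets for tubulin and actin on an Affymetrix wheat array. A probe set is a group of short probes whose signals are summarised into 1 value per array. Members were chosen by name: every probe set whose annotated gene has a symbol or synonym beginning with "tub", plus the wheat control probe sets for actin. This gave 14 of the 61290 probe sets in the table, 10 for tubulin and 4 for actin. The tubulin probe sets belong to 6 genes. TUBA is an alpha-tubulin gene with 2 probe sets. The 5 beta-tubulin genes have 8 probe sets, of which 4 belong to LOC543261 (Tubb5) and 1 each to LOC543257 (tubb1), LOC543258 (tubb2), LOC543473 (tubb3) and LOC543260 (Tubb4).

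The arrays compare the bread wheat genotypes AC Domain and RL4452 (Triticum aestivum), the parents of a mapping population. Both were raised in 1 field trial beside 39 lines of that population, and whole developing seed was frozen 5 days after anthesis. Each genotype has 2 biological replicates with 1 array each, and no treatment separates them. The labels do not say which field rows or plants a replicate came from, so p-values measure the spread between these arrays.

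Alpha- and beta-tubulin pair into the dimers from which microtubules are built, and actin polymerises into the filaments that carry organelles through plant cells. In young cereal seed, microtubules form the spindles and the phragmoplasts that lay down new walls, and cortical microtubules guide cellulose synthesis. Tubulin and actin genes are also widely used as reference genes for expression measurements. Bread wheat carries homoeologous copies of most genes, so a probe set can read several near-identical transcripts. Among the tubulin probe sets, 4 carry the suffix _x_at, which marks probes that may also match other transcripts, and 1 carries _s_at, which marks probes shared by several transcripts.

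All 14 probe sets had a mean above 4.48 on the log2 intensity scale, the 95th percentile of 23 negative control probe sets. Array medians ran from 5.00 to 5.08. The tubulin probe sets lay between 8.77 and 13.59 on every array, far above that level. The 4 actin controls lay between 4.66 and 7.21. The 3' control, from 4.66 to 5.06, was near the level, and the 5' control ran from 5.04 to 5.85. AFFX-Ta-actin-M_at, from 6.49 to 7.21, was above the array medians. Brightness depends on the probes as well as on the transcript, so signals of different probe sets were not ranked as transcript amounts. In whole seed, fewer cells of a type and less RNA per cell cannot be told apart.

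**Figure D1:**
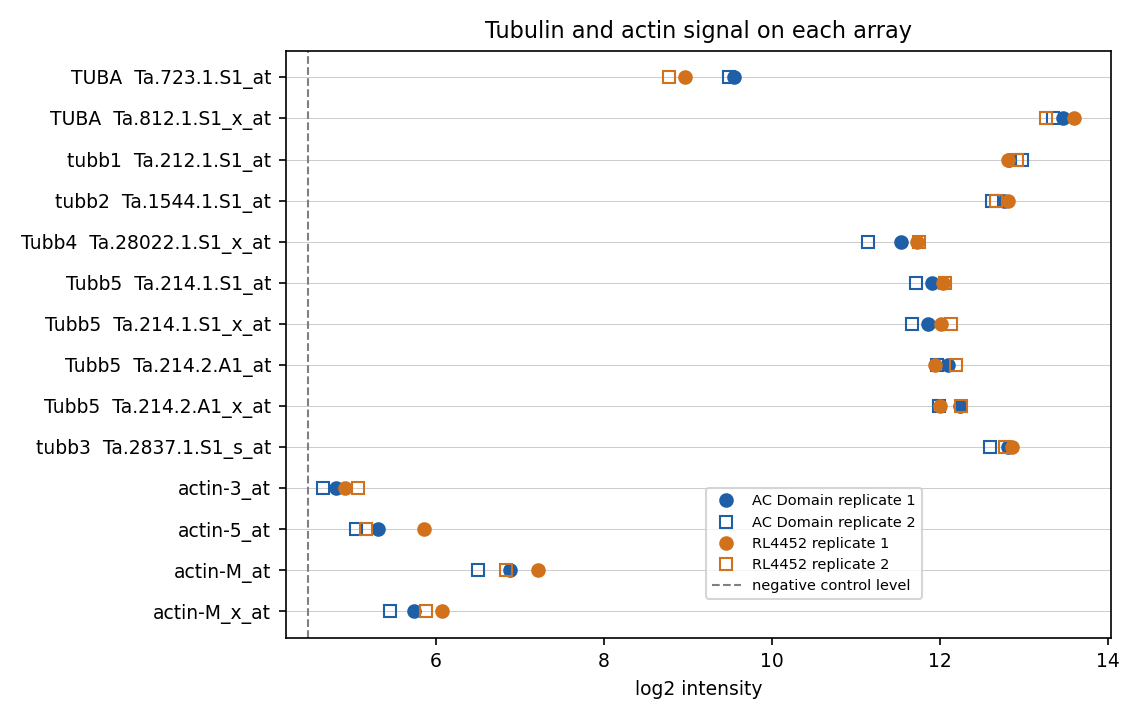
Log2 intensity of each tubulin and actin probe set (rows) on the 4 arrays; circles are replicate 1, squares replicate 2, and the dashed line is the negative control level of 4.48. The tubulin probe sets lie between 8.77 and 13.59 and the actin controls between 4.66 and 7.21.

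No tubulin or actin probe set passed the threshold between the genotypes. With limma on 61140 probe sets, 0 of the 14 had a Benjamini-Hochberg adjusted p under 0.05, where 0.800% of all probe sets did. The smallest adjusted p was 0.316. At an unadjusted p under 0.05, 1 of the 14 was found, against 9.16% of all probe sets. In 12 of the 14 the fitted difference, RL4452 minus AC Domain, was above 0. This held for 58.4% of all probe sets and for 52.5% of those above the negative control level. The count among the members was 8 of 14 after each array was centred on its median. In 6 of the 14 both arrays of 1 genotype lay beyond both arrays of the other, which is close to the 39.9% among all probe sets. None of these counts was tested against the rest of the array.

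The intervals show what sizes the arrays allow. The 95% interval for the difference lay within 1 log2 unit (2-fold) of 0 in 12 of the 14. This held for 75.7% of all probe sets and for 64.5% of those above the negative control level. The exceptions among the 14 were the alpha-tubulin probe set Ta.723.1.S1_at, whose interval reached -1.08, and the actin 5' control, whose interval reached 1.06. Every probe set called anywhere on the array differed by at least 1.41 on the log2 scale, so a difference of the size seen among these members was below what was called at this number of arrays.

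**Figure D2:**
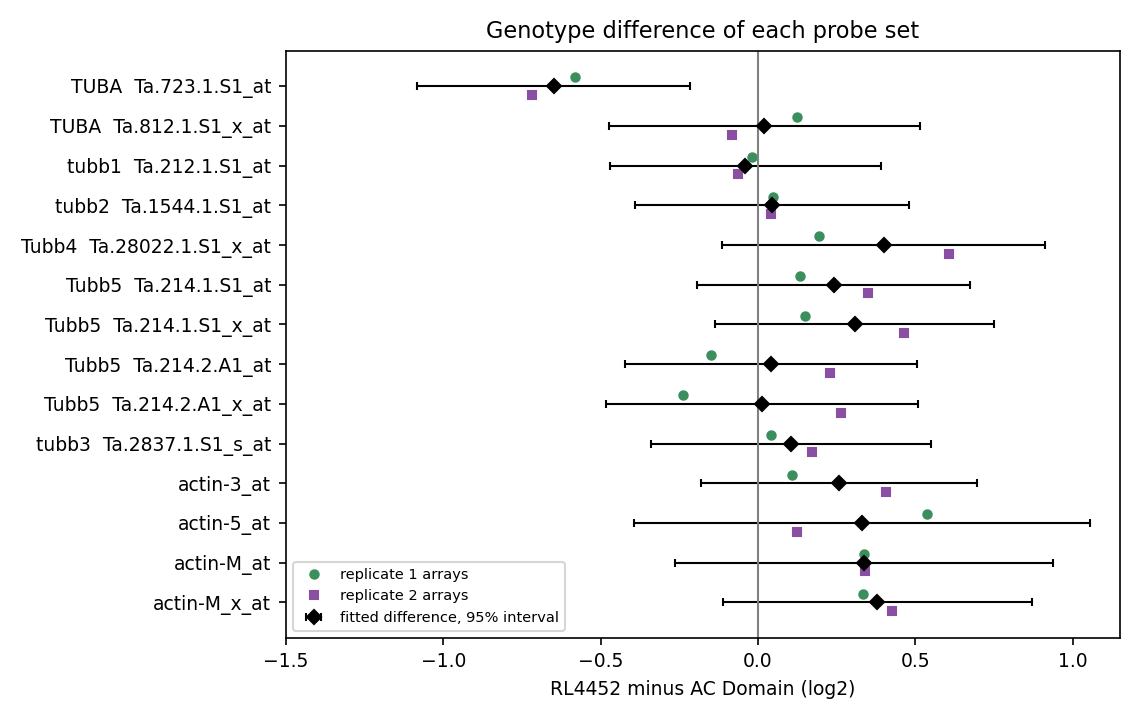
Difference RL4452 minus AC Domain on the log2 scale for each probe set (rows); diamonds are the fitted differences with 95% intervals, circles the difference between the replicate 1 arrays and squares that between the replicate 2 arrays. Only the interval of Ta.723.1.S1_at, from -1.08 to -0.22, leaves out 0, and its adjusted p was 0.316.

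TUBA encodes alpha-tubulin, the partner of beta-tubulin in the microtubule dimer. Its dimmer probe set, Ta.723.1.S1_at, had intensities of 746 and 720 in AC Domain and 498 and 438 in RL4452. On the log2 scale these are 9.54 and 9.49 against 8.96 and 8.77, so that both RL4452 arrays lay below both AC Domain arrays. The difference was -0.65 ± 0.17 (log2, standard error, n = 2 arrays per genotype), a 1.57-fold brighter signal in AC Domain. It was the 1 probe set of the 14 found at an unadjusted p under 0.05, and it missed the threshold over all probe sets (limma adjusted p = 0.316). The difference was -0.58 between the replicate 1 arrays and -0.72 between the replicate 2 arrays. Leaving out 1 array at a time gave values from -0.74 to -0.56.

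The other TUBA probe set, Ta.812.1.S1_x_at, did not show this. It had log2 intensities of 13.47 and 13.35 in AC Domain and 13.59 and 13.26 in RL4452, and the RL4452 arrays enclosed those of AC Domain. The difference was 0.02 ± 0.19 (log2, standard error; limma adjusted p = 0.988), with a 95% interval from -0.47 to 0.51. It was -0.04 after median centring, and leaving out RL4452 replicate 1 gave -0.14, leaving out AC Domain replicate 2 -0.04. Taken within each array, Ta.723.1.S1_at minus Ta.812.1.S1_x_at was -3.92 and -3.85 in AC Domain and -4.63 and -4.49 in RL4452. A factor common to all probe sets of an array cancels in this measure, but a normalisation that depends on intensity does not. The genotypes did not overlap in the measure, and its difference was -0.67 ± 0.08 (log2, standard error). After quantile normalisation the genotype differences were -0.55 for Ta.723.1.S1_at and 0.03 for Ta.812.1.S1_x_at. With 2 arrays a genotype, 0.333 is the smallest p that an exact two-sided permutation test allows. The annotation thus gives 1 gene for 2 probe sets with fitted differences of -0.65 and 0.02. Their 95% intervals, -1.08 to -0.22 and -0.47 to 0.51, overlapped, and neither passed the threshold. The RefSeq table gives this gene the synonym TUBA-2D but places it on a chromosome other than 2D, so which TUBA copy each probe set reads is uncertain. They stand in different transcript clusters, the groups of sequences from which the array was designed. Whether they read the same transcripts was not tested.

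The cluster of Ta.812.1.S1_x_at holds 4 more probe sets, 1 annotated to LOC100049037 and 3 without a name here. The limma test called 0 of these 4, adjusted or at an unadjusted p under 0.05, where the shares over the whole fit were 0.800% and 9.16%. Ta.812.2.A1_x_at (LOC100049037) had a difference of 0.40, with 11.07 and 10.99 in AC Domain and 11.67 and 11.20 in RL4452. It was the 1 of these 4 in which the genotypes did not overlap, against 39.9% of all probe sets. The others had differences of 0.02, -0.14 and -0.07. None of the cluster's probe sets had a difference as far below 0 as that of Ta.723.1.S1_at, the lowest being -0.14.

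Beta-tubulin binds and hydrolyses GTP. Its 8 probe sets had differences between -0.04 and 0.40, with a median of 0.08 on the log2 scale, beside a median of 0.05 over all probe sets. The beta-tubulin median was 0.02 after median centring, and it ran from 0.02 without AC Domain replicate 2 to 0.18 without AC Domain replicate 1. Of the 8, 7 were above 0, and 4 after median centring. All 8 intervals lay between -0.48 and 0.91. The median was 0.04 between the replicate 1 arrays and 0.25 between the replicate 2 arrays.

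Tubb4 (LOC543260, Ta.28022.1.S1_x_at) had the largest fitted difference above 0 among the 10 tubulin probe sets. Its log2 intensities were 11.54 and 11.15 in AC Domain and 11.73 and 11.75 in RL4452. Both RL4452 arrays lay above both AC Domain arrays, and AC Domain replicate 2 was the lowest. The difference was 0.40 ± 0.20 (log2, standard error; limma adjusted p = 0.645). It was 0.19 between the replicate 1 arrays and 0.61 between the replicate 2 arrays. It was 0.59 without AC Domain replicate 1 and 0.21 without AC Domain replicate 2. The 3 unnamed probe sets of its cluster had 0.18, 0.07 and 0.02, and in each of them RL4452 was lower between the replicate 1 arrays and higher between the replicate 2 arrays.

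Tubb5 (LOC543261) is the gene with most probe sets, 2 from each of 2 sub-clusters. Ta.214.1.S1_at had log2 intensities of 11.91 and 11.71 in AC Domain and 12.04 and 12.06 in RL4452. Ta.214.1.S1_x_at, from the same sub-cluster, had 11.86 and 11.67 in AC Domain and 12.01 and 12.14 in RL4452. In both probe sets the RL4452 arrays lay above those of AC Domain, with differences of 0.24 ± 0.17 and 0.31 ± 0.17 (log2, standard error; limma adjusted p = 0.733 and 0.675). They were 0.14 and 0.21 when AC Domain replicate 2 was left out, and 0.34 and 0.40 when AC Domain replicate 1 was. Probe sets of 1 sub-cluster can share probes, so they are not independent readings.

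The other sub-cluster of Tubb5 overlapped between the genotypes. Ta.214.2.A1_at had 12.09 and 11.96 in AC Domain and 11.95 and 12.19 in RL4452. Ta.214.2.A1_x_at had 12.24 and 11.99 in AC Domain and 12.00 and 12.25 in RL4452. Their differences were 0.04 ± 0.18 and 0.01 ± 0.19 (log2, standard error; limma adjusted p = 0.971 and 0.994). In both, the sign changed between the replicates: -0.15 and -0.24 between the replicate 1 arrays, 0.23 and 0.26 between the replicate 2 arrays. Leaving out AC Domain replicate 2 gave -0.02 and -0.11, and leaving out RL4452 replicate 2 gave -0.08 and -0.11. Within each array, Ta.214.1.S1_at minus Ta.214.2.A1_at was -0.19 and -0.25 in AC Domain and 0.09 and -0.13 in RL4452. The difference in this measure was 0.20 ± 0.12 (log2, standard error), with the same smallest exact p of 0.333.

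The remaining beta-tubulins were the steadiest of the members. Tubb1 (LOC543257, Ta.212.1.S1_at) had 12.83 and 12.97 in AC Domain and 12.81 and 12.91 in RL4452. Its difference was -0.04 ± 0.17 (log2, standard error; limma adjusted p = 0.969), and leaving out AC Domain replicate 2 gave 0.03, leaving out RL4452 replicate 1 gave 0.01. Tubb2 (LOC543258, Ta.1544.1.S1_at) had 12.77 and 12.62 in AC Domain and 12.81 and 12.67 in RL4452. In this probe set the replicate 1 arrays of both genotypes lay above the replicate 2 arrays, and the genotypes differed by 0.05 between the replicate 1 arrays and 0.04 between the replicate 2 arrays. Its fitted difference was 0.04 ± 0.17 (log2, standard error; limma adjusted p = 0.965), and -0.03 when either AC Domain replicate 2 or RL4452 replicate 1 was left out. Tubb3 (LOC543473, Ta.2837.1.S1_s_at) had 12.81 and 12.60 in AC Domain and 12.85 and 12.77 in RL4452, a difference of 0.11 ± 0.17 (log2, standard error; limma adjusted p = 0.898). Leaving out AC Domain replicate 2 brought it to 0.00043, and leaving out AC Domain replicate 1 to 0.21. The genotypes overlapped in these 3 probe sets.

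The spread over all 4 arrays describes how steady each signal was, whatever its source. The SD of the log2 intensity was 0.08 for Tubb1, 0.09 for Tubb2 and 0.11 for Tubb3. Only 3.78%, 4.87% and 8.64% of the 36301 probe sets above the negative control level had a smaller SD. Those probe sets were not matched in intensity to the members, and the part of brightness in these ranks was not tested. The median SD of those 36301 was 0.279, and 8 of the 10 tubulin and 2 of the 4 actin probe sets lay below it. Those above it were Ta.723.1.S1_at (0.383) and Tubb4 (0.280) among the tubulins, and the 5' (0.356) and AFFX-Ta-actin-M_at (0.295) controls for actin. A smaller SD over 4 arrays is a description of these libraries, and was not tested.

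**Figure D3:**
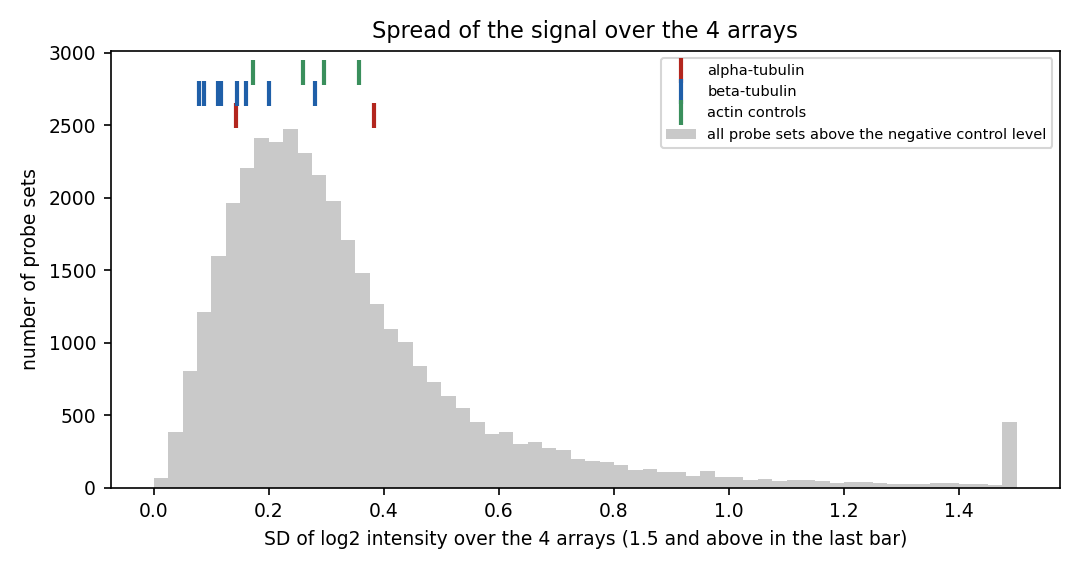
Number of probe sets above the negative control level (bars) by the SD of their log2 intensity over the 4 arrays, with ticks for the alpha-tubulin, beta-tubulin and actin probe sets. Of the 8 beta-tubulin ticks, 7 lie left of the median SD of 0.279.

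Actin is the filament protein measured here by control probe sets against the 3' end, the middle (M) and the 5' end of the transcript. The middle probe set AFFX-Ta-actin-M_at had log2 intensities of 6.88 and 6.49 in AC Domain and 7.21 and 6.83 in RL4452. The replicate 1 array was the brighter in each genotype, and RL4452 was higher by 0.34 between the replicate 1 arrays and by 0.34 between the replicate 2 arrays. The fitted difference was 0.34 ± 0.23 (log2, standard error; limma adjusted p = 0.729). With 1 array left out it ran from 0.14, when that array was AC Domain replicate 2, to 0.53, when it was AC Domain replicate 1 or RL4452 replicate 2. AFFX-Ta-actin-M_x_at had 5.74 and 5.46 in AC Domain and 6.07 and 5.88 in RL4452, with both RL4452 arrays higher. Its difference was 0.38 ± 0.19 (log2, standard error; limma adjusted p = 0.646), and with AC Domain replicate 2 left out it was 0.24, with AC Domain replicate 1 left out 0.52.

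The end probe sets of actin were dimmer still. AFFX-Ta-actin-3_at had 4.81 and 4.66 in AC Domain and 4.92 and 5.06 in RL4452, a difference of 0.26 ± 0.17 (log2, standard error; limma adjusted p = 0.719), and 0.17 with 16 added to each intensity. Its mean lay below the highest negative control value, 4.93. AFFX-Ta-actin-5_at had 5.31 and 5.04 in AC Domain and 5.85 and 5.17 in RL4452. The RL4452 replicate 1 array was the highest, and the difference was 0.33 ± 0.28 (log2, standard error; limma adjusted p = 0.778). Without that array it was -0.01. All 4 actin probe sets were higher in RL4452 in both replicates and under median centring, with a median of 0.33, and 0 of the 4 passed. They read 1 control gene, so they are not 4 independent readings.

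The 3' minus 5' difference of actin was -0.50 and -0.38 in AC Domain and -0.93 and -0.10 in RL4452. The RL4452 arrays stood on either side of the AC Domain arrays, replicate 1 the lowest and replicate 2 the highest. The genotype means, -0.44 and -0.52, differed by less than the SD of the RL4452 pair, 0.59. GAPDH, CYP86-TA, G-6-PDH, sucrose synthase and ubiquitin had the same order at the ends, RL4452 replicate 1 lowest and RL4452 replicate 2 highest. EF1A had both RL4452 arrays (0.89 and 0.95) above both AC Domain arrays (0.69 and 0.62). The part of this spread in the differences above was not tested. The run file of RL4452 replicate 2 held an entry marked as aborted and 0 wash entries, where each other array had 16 wash entries and no such mark.

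**Figure D4:**
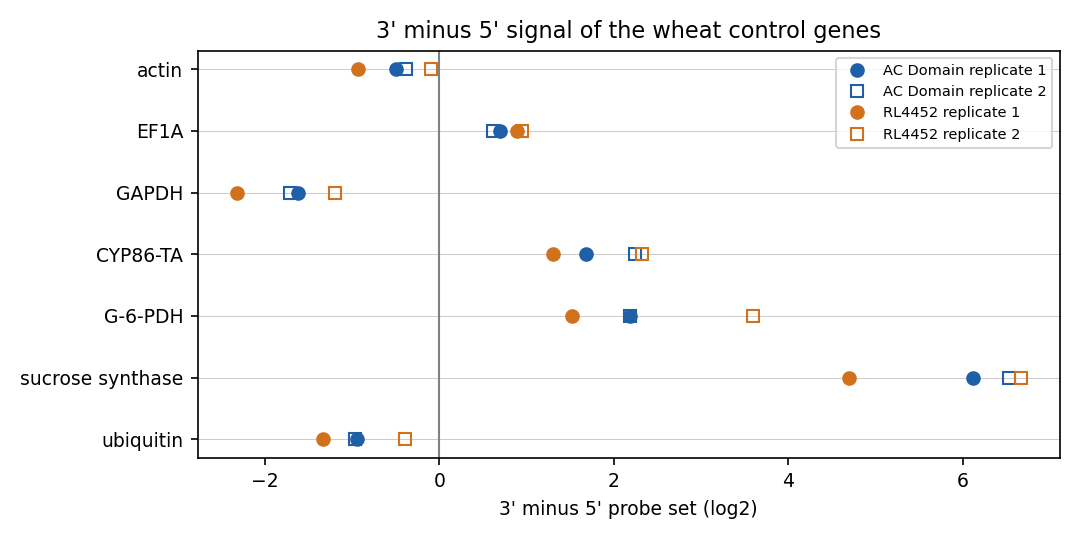
Log2 signal of the 3' probe set minus that of the 5' probe set within each array for actin and 6 other wheat control genes (rows); circles are replicate 1, squares replicate 2. For actin the values run from -0.93 on the RL4452 replicate 1 array to -0.10 on the RL4452 replicate 2 array, with both AC Domain arrays between.

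Because both actin and tubulin serve as reference genes, tubulin was also expressed relative to actin within each array. Tubulin minus AFFX-Ta-actin-M_at was lower in RL4452 for 9 of the 10 tubulin probe sets, with a median of -0.29 on the log2 scale, against 0.04 as deposited. The deposited median was itself -0.02 after median centring and -0.01 without AC Domain replicate 2, and reached 0.13 without AC Domain replicate 1 or RL4452 replicate 2. For Ta.723.1.S1_at it was 2.66 and 3.00 in AC Domain and 1.75 and 1.94 in RL4452, a difference of -0.99. Tubb4 was the exception, with 0.06. This shift equals the actin difference of 0.34 taken from every probe set, and 0 tubulin probe sets passed with it (limma; smallest adjusted p = 0.321). It was chosen after the values were seen.

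The 2 AC Domain replicates differed in the same direction in most members. In 13 of the 14 probe sets AC Domain replicate 1 was brighter than replicate 2, where this held for 52.5% of all probe sets, and Tubb1 was the exception. In RL4452, replicate 1 was the brighter in 7 of the 14, against 42.7% of all probe sets. These were both TUBA probe sets, Tubb2, Tubb3, both middle actin probe sets and the actin 5' control. The replicate 1 arrays of both genotypes belonged to 1 project in the run files and the replicate 2 arrays to another. The 4 arrays were scanned on 4 different days, so arrays of 1 project did not share a scan day. The difference had the same sign within both projects in 11 of the 14 probe sets, against 60.0% of all probe sets. The exceptions were Ta.812.1.S1_x_at and the pair Ta.214.2.A1_at and Ta.214.2.A1_x_at.

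Of the other genes of the cytoskeleton searched by name, only profilin had a match. Profilin (LOC543315) binds actin monomers and regulates their assembly. Its probe set Ta.5057.3.A1_at had 13.38 and 13.39 in AC Domain and 13.36 and 13.29 in RL4452, a difference of -0.07 ± 0.16 (log2, standard error; limma adjusted p = 0.938). Ta.5057.1.S1_x_at had 11.75 and 11.63 in AC Domain and 12.05 and 10.90 in RL4452, and its RL4452 arrays lay at both extremes. Its difference was -0.21 ± 0.40 (log2, standard error; limma adjusted p = 0.914). In Ta.5057.3.A1_at both RL4452 arrays lay below both AC Domain arrays, and 39.9% of the fitted probe sets were separated in either direction. The limma test called 0 of these 2 profilin probe sets, adjusted or at an unadjusted p under 0.05. Over the whole fit the called shares were 0.800% and 9.16%. A count of 0 among 2 cannot be told apart from such shares.

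Markers of other cell types in whole seed were read on the same arrays. All 18 probe sets for the histones H2A and H2B, genes of dividing cells, were above the negative control level. Their differences were above 0 in 18 of 18, also after median centring. Their median was 0.28 (log2). In 14 of them the genotypes did not overlap, against 39.9% of all probe sets. With limma 0 of the 18 passed, and 2 were found at an unadjusted p under 0.05, against 9.16% of all probe sets. Several of the 18 probe sets read the same gene, so they are not 18 independent readings. Their summed intensity was 51572 and 52092 in AC Domain and 58776 and 67078 in RL4452. As deposited, all 4 actin and 8 of the 10 tubulin probe sets also had a difference above 0, as did 58.4% of all probe sets. After median centring, 8 of the 14 tubulin and actin probe sets did. Whether the histone and cytoskeleton differences go together was not tested.

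Of 21 endosperm storage and starch probe sets, 8 were above the level, and 17 had a difference above 0 (14 after centring), with a median of 0.14. Their summed intensity was 3523 and 3738 in AC Domain and 5340 and 4635 in RL4452. At an unadjusted p under 0.05 limma found 2 of the 21, against 9.16% of all probe sets. The granule-bound starch synthase probe set Ta.2795.1.S1_a_at (LOC543395) was the 1 that passed after adjustment, as 0.800% of all probe sets did. It had 8.48 and 7.93 in AC Domain and 10.71 and 10.46 in RL4452, a difference of 2.38 ± 0.25 (log2, standard error; limma adjusted p = 0.0344). Its intensities, 356 and 243 in AC Domain and 1672 and 1406 in RL4452, are part of the sums above. Those sums therefore do not show a rise across the list. For the maturing embryo 1 of 6 was above the level and 6 of 6 had a difference above 0. For rbcL of green tissue the counts were 8 of 28 and 10 of 28, and for RAFTIN of the anther 1 of 4 and 3 of 4. None of these other lists had a probe set that passed with limma, where 0.800% of all probe sets did. The 1 found at an unadjusted p under 0.05 was of rbcL, against 9.16% of all probe sets. The 18S rRNA control differed by -2.95 ± 0.43 (log2, standard error; limma adjusted p = 0.0856). The part of any of these in the tubulin and actin values was not tested.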

How the data were processed

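Seed mRNA of AC Domain and RL4452 was hybridised to 1 Affymetrix wheat array per sample, 4 in all. The deposited values are probe set intensities made with RMA, per the submitters' processing notes; they are on a linear scale (4.74 to 25900), and no source used here names the arrays that shared an RMA run. They were log2-transformed with no further scaling. The run files hold other entries, namely instrument settings per the file headers, and gave only project, wash record and scan day.

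The 61115 wheat probe sets and 25 controls for wheat RNA were fitted with limma 3.58.1 in R 4.3.3 (lmFit, eBayes; genotype the only factor; two-sided; Benjamini-Hochberg adjusted p under 0.05). The other 150 controls were left out. The fit had 2 residual degrees of freedom and 2.97 from the prior; the number of arrays limits the precision. It was checked on simulated data. Names came from the platform annotation and, through gene identifiers, the RefSeq table of IWGSC CS RefSeq v2.1, which held 770 of 771 genes. Of the wheat probe sets, 1273 had 1 gene, 0 had several and 59842 have no name here, so other tubulin or actin genes may be among those. Isotype was read from the symbol or synonym. No sequences were used, and gene locations served only for the chromosome of TUBA.

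All members are named in the text, and the transcript cluster was read from the probe set ID. Members, lists and tests were chosen with earlier results of these data known. Same-numbered arrays share a project in the run files, which is where the pairing comes from, and their deviations from the genotype means had a correlation of r = 0.398 over the 61140 probe sets, which share these 4 arrays. Alternatives were other scalings, an offset of 16, the project as replicate block, an intensity trend, other sets of probe sets and leaving out each array.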

Additional observations from a re-analysis of the deposited data

How the results depend on the processing

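The count of 0 of 14 tubulin and actin probe sets past the threshold was the same in every fit run, and Ta.723.1.S1_at kept its direction in all of them. With the project as replicate block 0 of the 14 passed and 664 of all probe sets did, against 489, and no call among the 14 changed. The count over all probe sets was 143 with 16 added to each intensity, and it ran from 0 to 1039 when 1 array was left out. It was 0 without AC Domain replicate 1 or 2, 1039 without RL4452 replicate 1 and 1014 without RL4452 replicate 2. Fits that leave out an array take the spread from the other genotype's pair, and so assume that the lone array varies alike.

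Median centring, which removed a shift of 0.06 between the genotypes, changed the sign of 4 probe sets: Ta.1544.1.S1_at (-0.014), Ta.214.2.A1_at (-0.018), Ta.214.2.A1_x_at (-0.046) and Ta.812.1.S1_x_at (-0.039). Scaling on AFFX-Ta-actin-M_at, added after the data were seen, left 2 probe sets higher in RL4452, against 12. By construction it lowered every difference by the same amount. The medians became -0.29 for tubulin, -0.65 for alpha-tubulin (main value -0.31) and -0.26 for beta-tubulin. Signs changed for Ta.1544.1.S1_at (-0.29), Ta.214.1.S1_at (-0.097), Ta.214.1.S1_x_at (-0.030), Ta.214.2.A1_at (-0.30), Ta.214.2.A1_x_at (-0.32), Ta.2837.1.S1_s_at (-0.23), Ta.812.1.S1_x_at (-0.32), AFFX-Ta-actin-3_at (-0.079) and AFFX-Ta-actin-5_at (-0.0061).

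When 1 array was left out, the sign changed for 6 probe sets. The ranges were -0.028 to 0.12 for Ta.1544.1.S1_at, -0.11 to 0.034 for Ta.212.1.S1_at, -0.082 to 0.165 for Ta.214.2.A1_at, -0.11 to 0.14 for Ta.214.2.A1_x_at, -0.14 to 0.18 for Ta.812.1.S1_x_at and -0.011 to 0.67 for AFFX-Ta-actin-5_at. The tubulin median ran from -0.01 to 0.13 and the beta-tubulin median from 0.02 to 0.18. The actin controls lie nearest to background. Of the 14 means, 13 exceeded the highest negative control, and the actin 3' end did not.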
